A study of Sus scrofa with 18 samples.

Results

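Messenger RNA of 4 genes known from the retinal pigment epithelium, TTR, SERPINF1, BEST1 and OCA2, was measured in 18 piglet retinas. Members were all probe sets whose only gene symbol in the platform annotation was 1 of these names, which gave 5 of the 24123 probe sets on the array: 1 each for TTR, SERPINF1 and OCA2, and 2 for BEST1. Each gene was represented by its brightest probe set, and the 4 genes stand among 5710 genes with a named probe set that passed the filter on dim signal. The retinas came from male Landrace and Large White cross piglets at postnatal day 38, placed at random from an age of 3 days on milk replacer alone (control, 9 arrays) or on milk replacer supplemented with sialyllactose (9 arrays), a sugar of milk that carries sialic acid. The labels give no dose of sialyllactose, no litter and no array batch, and they name the tissue as retina without saying how it was parted from the pigment epithelium behind it. Each array was taken as 1 piglet, as the numbered titles read, and p-values measure the spread between these arrays.

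The pigment epithelium is the single sheet of dark cells between the photoreceptors and the choroid. It takes up shed photoreceptor outer segments, rebuilds the visual chromophore, moves ions and water towards the blood and secretes growth factors and carrier proteins. TTR encodes transthyretin, the carrier of thyroid hormone and, with its binding partner, of retinol, which pigment epithelium and ciliary epithelium make in the eye. SERPINF1 encodes pigment epithelium-derived factor, a secreted protein with effects on vessels and neurons. BEST1 encodes bestrophin, a chloride channel of the basolateral membrane, and OCA2 a melanosome membrane protein needed for pigment. Values below are RMA levels on the log2 scale, so a difference of 1 is a doubling; levels of different probe sets are not compared with each other.

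The arrays carried retinal transcripts. SAG, the rod arrestin, lay between 10.3 and 10.8 and ARR3, the cone arrestin, between 9.11 and 10.2. Over the 16799 tested probe sets, any 2 arrays correlated at 0.981 to 0.992, and 0 pairs were copies of each other. Precision is limited by how many arrays there are.

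TTR varied widely between retinas of the same diet. In control its level was lowest at 4.54 in replicate 3, had a median of 7.17 and reached 8.32 in replicate 4. With sialyllactose the lowest was 5.53, the median 6.41 and the highest 8.09, so every sialyllactose retina lay within the control range and both extremes were control retinas. The lowest and highest retinas were 3.78 apart on the log2 scale, or 13.8-fold. Its SD within diets was 1.05, which ranked 17 among all tested probe sets from the largest down.

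SERPINF1 also spread widely. Control retinas ran from 3.46 (replicate 5) through a median of 5.07 to 5.40 (replicate 7), and sialyllactose retinas from 4.04 through 4.51 to 5.35. The control group held both ends of the range again, with replicates 3 and 5 at 3.69 and 3.46 below every other retina. The SD within diets was 0.630, rank 82 among the tested probe sets, and the range was 3.82-fold.

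BEST1 and OCA2 varied far less. In its brightest probe set BEST1 ran from 4.24 through 4.48 to 4.96 in control and from 3.88 through 4.32 to 4.47 with sialyllactose (lowest, median, highest), and 11.7% of tested probe sets had a larger SD within diets than its 0.238. The highest BEST1 level was in control replicate 3, the retina with the lowest TTR. The second BEST1 probe set was dim, at a mean of 1.08 over all arrays, and was left out by the filter.

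OCA2 was near the floor of the array, with a mean of 1.80 at the percentile 9.69 of tested probe sets. It ran from 1.58 through 1.80 to 2.36 in control and from 1.30 through 1.78 to 1.97 with sialyllactose. In 3 retinas its value was the same to 4 decimals (1.7766), and 9 of the 18 lay within 0.025 of it, so the order of these retinas carries little information.

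**Figure D1:**
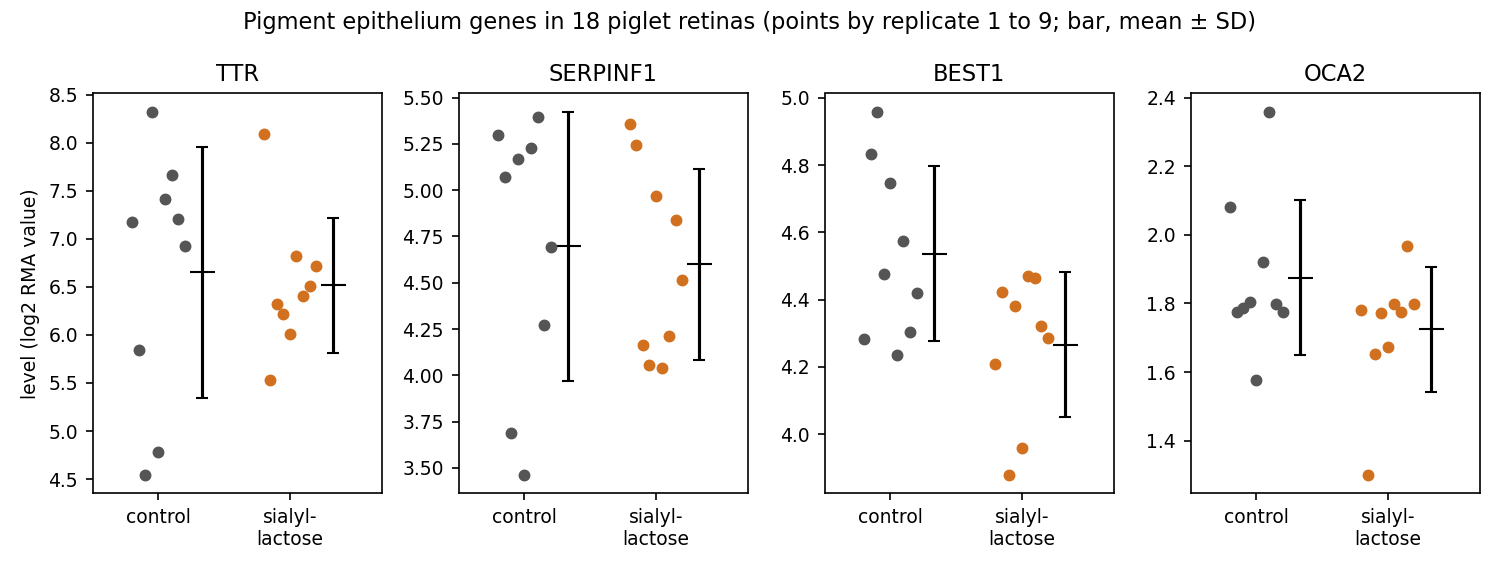
Level of TTR, SERPINF1, BEST1 and OCA2 (log2 RMA value, vertical axis, scaled separately for each gene) in 9 control and 9 sialyllactose retinas, 1 point per retina in order of replicate number, with the group mean ± SD beside the points. TTR spans 4.54 to 8.32 and both of its extremes are control retinas.

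The next question was whether the 4 genes varied together in the same retinas, as differing amounts of adhering pigment epithelium would make them. TTR and SERPINF1 did so over all 18 retinas (Pearson r = 0.623, permutation p = 0.00579, adjusted p = 0.0347 over the 6 pairs of genes), while Spearman's rho was 0.562 (permutation p = 0.0172, adjusted p = 0.0517). Without control replicates 3 and 5, the 2 retinas farthest from the TTR median, r was 0.340 (permutation p = 0.197, adjusted p = 0.590). Both stood at the low end of TTR, so leaving them out also narrowed its range. Whether the lower r came from the narrower range or from a relation resting on these 2 retinas was not tested.

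The coefficient of TTR and SERPINF1 was also taken within each diet. In control r was 0.805 (exact permutation p = 0.0124, adjusted p = 0.0461, n = 9), and with sialyllactose it was 0.159 (exact permutation p = 0.719, adjusted p = 0.994, n = 9). The difference between these coefficients was not tested. With the diet means removed r was 0.621 (permutation p = 0.0138, adjusted p = 0.0746). Leaving out any 1 of control replicates 1, 3, 4, 5, 6 and 7 or sialyllactose replicate 1 also brought the adjusted p above 0.05, with r between 0.522 and 0.613 (adjusted p up to 0.176), while without sialyllactose replicate 2 r was 0.731 (adjusted p = 0.00408).

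TTR and OCA2 gave positive coefficients in both diets. Over all retinas r was 0.519 (permutation p = 0.0269, adjusted p = 0.0808), and rho was 0.690 (permutation p = 0.00213, adjusted p = 0.0128). Within control r was 0.537 (exact permutation p = 0.126, adjusted p = 0.179, n = 9) and within sialyllactose 0.549 (exact permutation p = 0.141, adjusted p = 0.847, n = 9). Without the 2 retinas farthest from the TTR median it was 0.553 (permutation p = 0.0246, adjusted p = 0.147). The pair passed on ranks and not on the log2 values themselves, and the ranks include the ties of OCA2 near its floor.

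BEST1 did not follow TTR. Over all retinas r was -0.415 (permutation p = 0.0865, adjusted p = 0.173) and rho -0.300 (permutation p = 0.223, adjusted p = 0.334). Within control the coefficient was -0.779 (exact permutation p = 0.0154, adjusted p = 0.0461, n = 9), and within sialyllactose it was -0.00287 (exact permutation p = 0.994, n = 9). Without control replicates 3 and 5, which again narrows the range of TTR, r was 0.0130 (permutation p = 0.962). The dim second probe set of BEST1 had r = -0.424 with TTR (permutation p = 0.0798, adjusted p = 0.160 over 2 relations; rho -0.578, permutation p = 0.0136; -0.459 without the 2 farthest retinas; -0.717 in control and -0.419 with sialyllactose). The 2 BEST1 probe sets had r = 0.332 with each other (permutation p = 0.177, adjusted p = 0.177; rho 0.508, permutation p = 0.0334; 0.206 without the 2 farthest retinas), with 0.787 within control and 0.571 within sialyllactose.

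The remaining pairs did not pass over all retinas. SERPINF1 and OCA2 had r = 0.323 (permutation p = 0.194, adjusted p = 0.291; rho 0.419, permutation p = 0.0850), with 0.693 in control and -0.337 with sialyllactose. Without sialyllactose replicate 2, the retina with the lowest OCA2, that coefficient was 0.590 (permutation p = 0.00789, adjusted p = 0.0237). SERPINF1 and BEST1 had r = -0.283 (permutation p = 0.253, adjusted p = 0.304; rho -0.255, permutation p = 0.305). BEST1 and OCA2 had r = 0.0618 (permutation p = 0.806, adjusted p = 0.806; rho -0.00310, permutation p = 0.993). Without the 2 retinas farthest from the median of the first gene, these 3 coefficients were 0.248, 0.159 and -0.0132. Within control SERPINF1 and BEST1 had r = -0.524 and BEST1 and OCA2 -0.306, and within sialyllactose -0.145 and 0.0619.

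**Figure D2:**
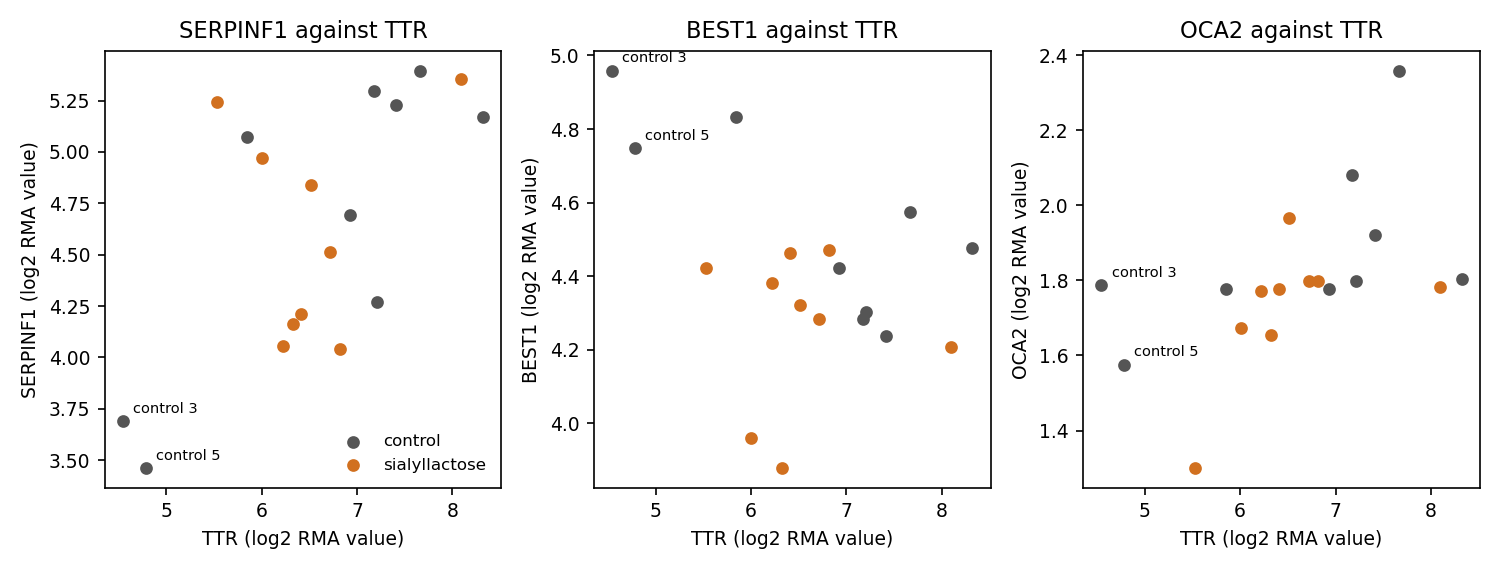
SERPINF1, BEST1 and OCA2 (vertical axes) against TTR (horizontal axes), all as log2 RMA values, with 1 point per retina coloured by diet. Control replicates 3 and 5, at TTR levels of 4.54 and 4.78, stand at the left end, with the lowest SERPINF1 and with high BEST1 levels of 4.96 and 4.75.

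The order of single retinas restates the same pattern and is no separate result. Of the 6 retinas with the most TTR, 5 were also among the 6 with the most SERPINF1, 4 among the 6 with the most OCA2 and 2 among the 6 with the most BEST1. Control replicates 1, 4, 6 and 7 were among the top 6 for TTR, SERPINF1 and OCA2 alike, and replicates 4 and 7 for all 4 genes. For control replicate 4 the place in OCA2 rests on its floor, since it stood at 1.8031 and the retinas at ranks 6 and 7 at 1.7995 and 1.7978. Sialyllactose replicate 2 departed from the pattern, with SERPINF1 at 5.24 (rank 4 of 18 from the highest) beside TTR at 5.53 (rank 16) and OCA2 at 1.30 (rank 18). In 3 retinas, control replicates 2, 3 and 5, TTR was among the 6 lowest and BEST1 among the 6 highest. In 3 others, control replicates 1 and 6 and sialyllactose replicate 1, TTR was among the 6 highest and BEST1 among the 6 lowest.

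Set against all tested probe sets with the diet means removed, r with TTR was higher than that of SERPINF1 in 0.482% of probe sets and higher than that of OCA2 (0.532) in 1.37%. BEST1 stood at the other end, with r = -0.528, below which lay 1.57% of probe sets. As a scale for these values, 2.07% of tested probe sets had r of at least 0.5 with TTR and 2.2% had r of at most -0.5. These are descriptions of the 18 retinas, and genes are not independent replicates.

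The genes whose pattern was most like that of TTR were found by the highest r over the 18 retinas with diet means removed, among genes taken at their brightest probe set. They were ENPP2, GJA1, BMP4, CALML4 and COMMD2, with r from 0.765 to 0.879. They were picked as the highest values, so no test is given. ENPP2 encodes autotaxin, a secreted enzyme that makes lysophosphatidic acid, and was also on the list of pigment epithelium genes. It ran from 3.59 through 5.90 to 6.48 in control and from 4.41 through 5.04 to 6.26 with sialyllactose. Its lowest level was in control replicate 3 and its highest in control replicate 4, the same 2 retinas as for TTR.

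ENPP2 followed TTR in both diets, with r = 0.905 in control and 0.831 with sialyllactose, a rho of 0.913 over all retinas, and r = 0.862 without control replicates 3 and 5. GJA1, the gap junction protein connexin 43, had r = 0.860 in control and 0.907 with sialyllactose and a level between 1.74 and 3.88. BMP4, a secreted growth factor, had r = 0.898 and 0.887 in the 2 diets. CALML4, a calmodulin-like protein, was the only gene among the 5 nearest of both TTR (r = 0.778) and SERPINF1 (r = 0.731), and it stood at 1.64 in control replicate 3 and 3.55 in sialyllactose replicate 1. Without control replicates 3 and 5 and with diet means kept, r with TTR was 0.891 for GJA1, 0.774 for BMP4, 0.713 for CALML4 and 0.733 for COMMD2. As these genes were chosen for their r over the same retinas, the values are a description only.

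The nearest genes of SERPINF1 were STMN1, a microtubule regulator (r = 0.758), DICER1, which processes microRNAs (0.748), CALML4, PDK4, a kinase that restrains pyruvate oxidation (0.726), and APOE, a lipid carrier made by glia (0.710). With TTR the coefficient was 0.778 for CALML4, 0.650 for STMN1, 0.557 for PDK4, 0.3825 for DICER1 and 0.0489 for APOE. The genes nearest to SERPINF1 thus differed in how near they stood to TTR. The nearest genes of OCA2 were LOC100621476, ACVR2B, an activin receptor, MT-2B, a metallothionein, TMEM221 and RSU1, with r from 0.712 to 0.798. Those of BEST1 were TNFAIP8L2, an immune regulator, MRPL10 and MRPS12, both of the mitochondrial ribosome, RHOBTB1, and FARSB, a subunit of a tRNA synthetase, with r from 0.716 to 0.831. With diet means kept and without the 2 retinas farthest from the member's median, r ran from 0.487 (DICER1) to 0.720 (APOE) for the genes nearest to SERPINF1, from 0.133 (TMEM221) to 0.784 (MT-2B) for those of OCA2, and from 0.279 (MRPS12) to 0.631 (MRPL10) for those of BEST1. TNFAIP8L2 had r = 0.395 with BEST1 over all 18 retinas before the diet means were removed. The 5 genes nearest to BEST1 all had negative r with TTR, from -0.548 for TNFAIP8L2 to -0.229 for FARSB. They were chosen for r with BEST1, which itself had r = -0.528 with TTR, so these signs are no separate result.

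**Figure D3:**
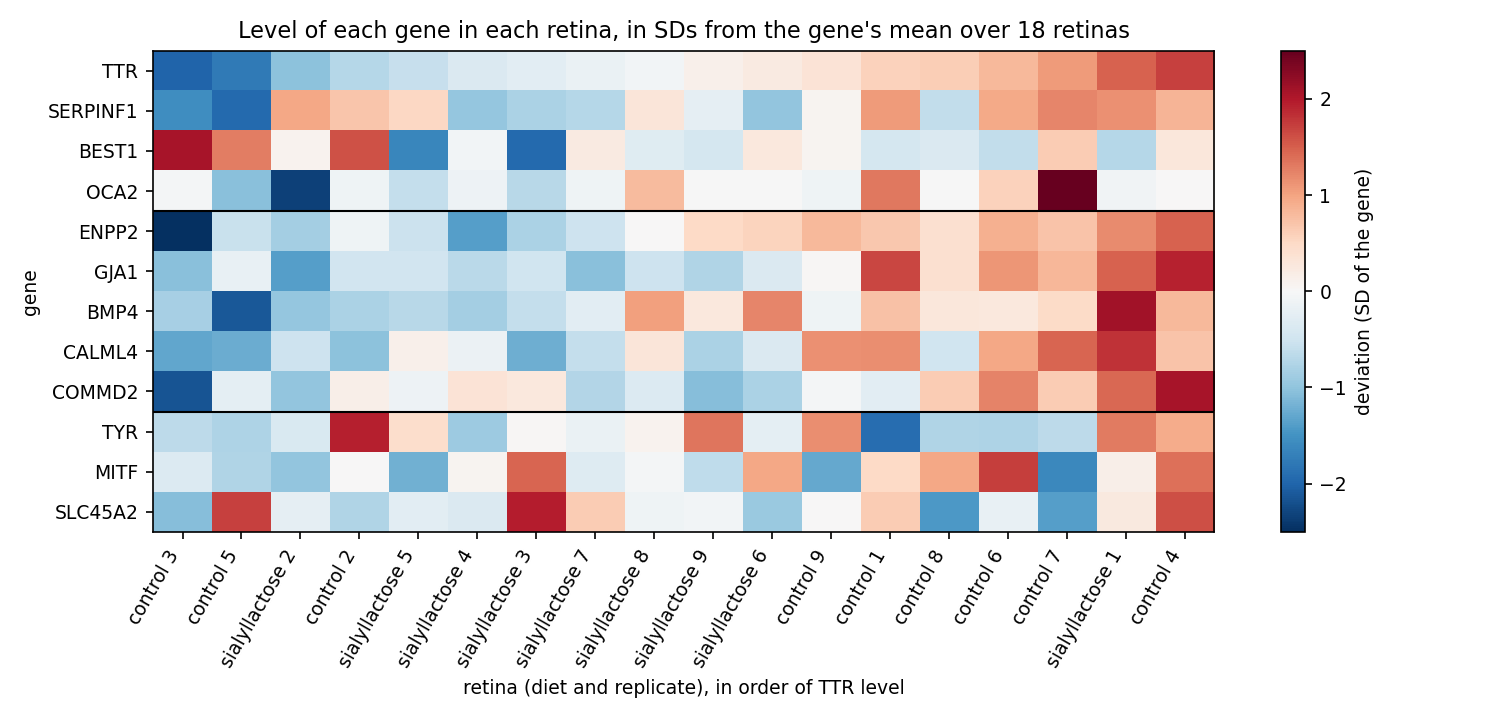
Level of 12 genes (rows) in each of the 18 retinas (columns, ordered from the lowest to the highest TTR), as deviation from the gene's mean over all retinas in units of its SD. The upper block holds TTR, SERPINF1, BEST1 and OCA2, the middle block the 5 genes with the highest r with TTR, and the lower block 3 pigment genes. The middle block follows the order of TTR because its genes were chosen for that over these same retinas. BEST1 is highest in control replicate 3 at the left end. TYR, MITF and SLC45A2, which were not chosen in that way, have r between 0.0249 and 0.364 with TTR.

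Other genes known from pigment epithelium were taken from 3 lists of 57 genes, of which 28 had a named probe set and 23 were tested. The classical visual cycle enzymes RPE65, LRAT, RDH5 and RGR were not analysed here. Of the 23 tested genes, 3 (13.0%) had r of at least 0.5 with TTR, against 2.07% of all tested probe sets, and 0 had r of at most -0.5. They were ENPP2, KRT18, a keratin of simple epithelia (r = 0.634), and EZR, the ezrin of apical microvilli (r = 0.580). KRT18 and EZR were named here after their values were seen, and ENPP2 is the gene already given above as nearest to TTR. The lists were chosen with earlier results of these data known, so these shares are a description only. The median r with TTR was 0.198 over these 23 genes and -0.00244 over all tested probe sets. A median of that size was not particular to pigment epithelium genes, as it was 0.209 over 8 Mueller glia genes. In the lists of other tissues described below it ran from -0.178 (microglia and immune, 3 genes) to 0.256 (blood, 1 gene).

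Melanin genes had low coefficients with TTR. TYR, tyrosinase, ran from 2.45 to 3.25 over the 18 retinas, MITF, the master regulator of pigment cells, from 2.25 to 2.83, and SLC45A2, a melanosome transporter, from 1.90 to 2.68. Their r with TTR was 0.186, 0.364 and 0.0249 and with OCA2 -0.152, -0.000893 and -0.297. TYR, MITF and SLC45A2 were dim, at means of 2.84, 2.53 and 2.23. So were KRT18, GJA1, BMP4 and CALML4, which had higher r with TTR, at means of 2.175, 2.634, 2.159 and 2.437. Those genes were chosen for, or named after, their high r with TTR, so they do not show what dim signal does to r. Its effect on the melanin genes was not tested. Of the 13 melanin genes listed, 3 were tested, 3 were dim and 7 had no named probe set.

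In the visual cycle list, RLBP1, a retinoid carrier shared by pigment epithelium and Mueller glia, had r = 0.116 with TTR and 0.449 with SERPINF1, and RDH11, a retinol dehydrogenase, 0.230 and -0.128. Among the brightest genes of the transport, secretion and epithelium list, r with TTR was 0.123 for VEGFA, a vessel growth factor, 0.198 for ITGAV, an integrin of outer segment uptake, 0.446 for CA12, a carbonic anhydrase, and 0.133 for CRIM1, a membrane protein that binds growth factors. With SERPINF1, 2 of the 23 genes (8.70%, against 1.6% of tested probe sets) had r of at least 0.5, CA12 at 0.550 and ENPP2 at 0.604. With OCA2, 1 gene did (4.35%, against 1.62%), DAPL1 at 0.542. DAPL1, a gene known from pigment epithelium, spread from 2.74 to 5.62. With BEST1, 0 of the 23 genes did (against 2.18%), and the median r was -0.259. At r of -0.5 or below stood 1 gene with BEST1 (against 1.79%), the integrin ITGB5 at -0.569, and 0 with SERPINF1 or OCA2 (against 2.03% and 1.85%).

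Of 49 tested genes in 11 lists of other tissues and cell types, 0 had r of at least 0.5 with TTR, against 2.07% of all tested probe sets, a share at which about 1 gene of 49 would be counted, and 1, IRF7, had r of at most -0.5 (against 2.2%). These lists held rods, cones, Mueller glia, choroid and vessels, sclera, lens, ciliary body and iris, myelin, blood, microglia and the interferon response, and several had few tested genes, down to 1 each for lens and blood. HBB, the blood globin, had r = 0.256 with TTR, WFDC1 of the ciliary body and iris list 0.0935 and PECAM1, an endothelial marker, 0.0995. The ciliary body and iris list had 2 tested genes, WFDC1 and DES (r = -0.1105 with TTR), too few to describe ciliary epithelium. The median r with TTR was 0.0995 over 9 choroid and vessel genes and 0.209 over 8 Mueller glia genes. With SERPINF1, BEST1 and OCA2, 1, 1 and 2 of the 49 genes had r of at least 0.5 (APOE, CD14, and VIM with WFDC1), against 1.6%, 2.18% and 1.62% of tested probe sets. At r of -0.5 or below stood 3 genes with SERPINF1 (USP18, RSAD2 and the vessel gene VWF, against 2.03%), 3 with BEST1 (CD9, ACTA2 and FN1, against 1.79%) and 0 with OCA2.

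**Figure D4:**
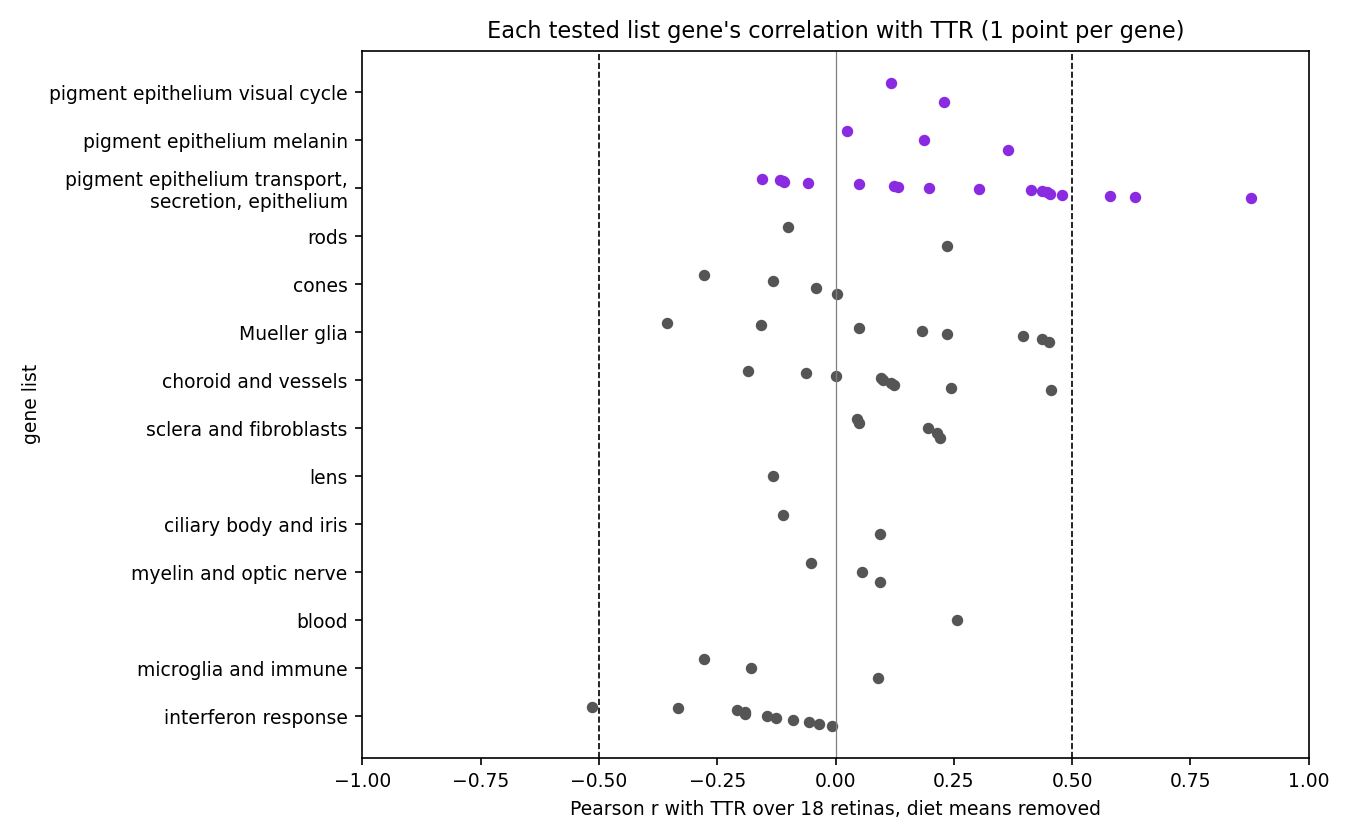
Pearson r with TTR over 18 retinas with diet means removed (horizontal axis) for each tested gene of 14 lists (rows), 1 point per gene, with pigment epithelium lists in violet and dashed lines at -0.5 and 0.5. The 3 points beyond 0.5 are EZR, KRT18 and ENPP2, all in the list of transport, secretion and epithelium genes.

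Coefficients with SERPINF1 were also taken for interferon response genes. Of 11 tested interferon genes 2, USP18 and RSAD2, had r of at most -0.5, against 2.03% of tested probe sets, and the median was -0.415, whereas with TTR the median was -0.144 and IRF7 had r = -0.515. The mean log2 level of the 11 genes lay between 2.38 and 4.01 in control retinas and between 2.36 and 4.79 in sialyllactose retinas. The lowest mean among them was 1.78, for OAS1, and none was listed at 0. Their part in the SERPINF1 values was not tested. In whole retina, fewer cells of a type and less RNA per cell cannot be told apart, and this holds for every relation above.

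RNA quality was read from the 3' and 5' control probe sets of 3 transcripts. The mean 3' minus 5' difference was 1.90 ± 0.17 in control and 1.96 ± 0.19 with sialyllactose (SD over 9 arrays each, on the log2 scale). Its r was -0.0540 with TTR, -0.235 with SERPINF1, -0.329 with BEST1 and -0.299 with OCA2 over 18 retinas (permutation p = 0.831, 0.351, 0.182 and 0.221; adjusted p from 0.442 to 0.831 over the 4 relations). The rho values were -0.0588, -0.207, -0.278 and -0.384 (permutation p = 0.816, 0.406, 0.263 and 0.117). Without the 2 retinas farthest from its median, r was -0.0886, -0.193, -0.0296 and -0.293. Within sialyllactose the value for BEST1 was -0.703 and within control 0.120. With this difference regressed out, TTR and SERPINF1 had r = 0.629 (permutation p = 0.00521, adjusted p = 0.0313).

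The last comparison asked whether the diets differed in these genes. All 4 had lower means with sialyllactose, as had 53.4% of tested probe sets, and 0 of the 4 passed at an adjusted p under 0.05 in limma, against 0% of the 16799 tested probe sets. BEST1 had the largest difference of the 4. Its mean was 4.54 ± 0.26 in control and 4.27 ± 0.21 with sialyllactose (SD, n = 9 each), a difference of -0.27 (95% interval -0.49 to -0.06), and 9 of 9 sialyllactose retinas lay below the control median.

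The BEST1 difference had a limma p of 0.0163 before adjustment and an adjusted p of 0.753. It was the only 1 of the 4 at an unadjusted p under 0.05, a level reached by 6.3% of tested probe sets, and 3.36% reached it on the lower side. The exact two-sided permutation p over 48620 splits was 0.0286, unadjusted. The dim second probe set went the other way, with 1.03 ± 0.09 in control and 1.12 ± 0.23 with sialyllactose (n = 9 each, exact permutation p = 0.303). Averaged over both probe sets the difference was -0.09 (limma adjusted p = 0.902).

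TTR had a mean of 6.65 ± 1.31 in control and 6.52 ± 0.71 with sialyllactose, a difference of -0.14 (95% interval -1.04 to 0.77, limma adjusted p = 0.978, n = 9 each). A difference of that size was not detectable with this spread. The direction turned without control replicate 4, when it was 0.07. SERPINF1 differed by -0.10 (4.70 ± 0.73 against 4.60 ± 0.52, 95% interval -0.64 to 0.45, limma adjusted p = 0.973), and by -0.25 without control replicate 5 and -0.01 without control replicate 7. OCA2 differed by -0.15 (1.88 ± 0.23 against 1.72 ± 0.18, 95% interval -0.34 to 0.04, limma adjusted p = 0.821), and by -0.09 without control replicate 7 and -0.10 without sialyllactose replicate 2.

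The other pigment epithelium genes did not pass either. Of the 23 that were tested, 8 were on the higher and 15 on the lower side with sialyllactose, where 53.4% of all tested probe sets were lower. Of the 23, 0 passed at an adjusted p under 0.05, against 0% of all tested probe sets. The median difference was -0.07 over the 2 visual cycle genes, 0.04 over the 3 melanin genes and -0.03 over the 18 transport, secretion and epithelium genes, against -0.01 over all tested probe sets. ENPP2, the gene nearest to TTR, differed by -0.29 (5.55 ± 0.85 in control and 5.26 ± 0.60 with sialyllactose, SD over 9 retinas each), with a limma adjusted p of 0.907. CST3, a secreted protease inhibitor, was the only 1 of the 23 at an unadjusted limma p under 0.05, a level reached by 6.3% of all tested probe sets. Its difference was -0.11 (limma adjusted p = 0.779) in the brightest of its 3 tested probe sets.

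**Figure D5:**
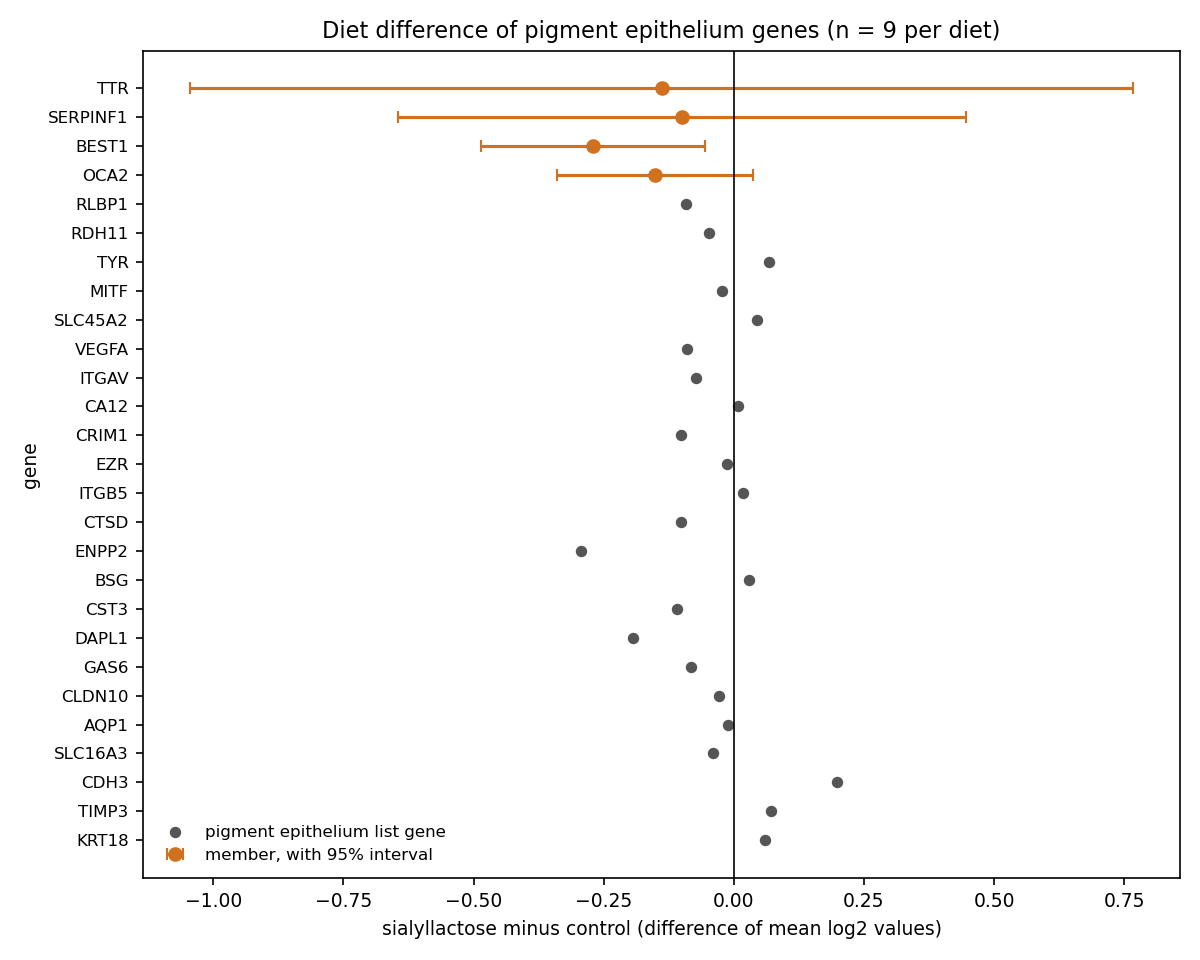
Difference of mean log2 values, sialyllactose minus control (horizontal axis, n = 9 per diet), for TTR, SERPINF1, BEST1 and OCA2 with 95% intervals from limma and for the 23 tested genes of the pigment epithelium lists as points. The interval of TTR, from -1.04 to 0.77, is the widest of the 4, and that of BEST1, from -0.49 to -0.06, lies below 0 without passing the adjusted test.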

How the data were processed

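The deposited table gave each probe set a log2 value on each array, made by the authors with Affymetrix Expression Console and RMA, per the submitters' processing notes; the settings are not given in the sources used here. RMA values have no detection call and compress differences of dim probe sets. The members, lists and tests were chosen with earlier results of these data known.

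From the table, 124 control probe sets and the 30% of the rest with the lowest mean (7200) were left out, leaving 16799. Symbols came from the platform annotation (10099 probe sets with 1 symbol, 198 with several, 13826 with none); 9989 matched a RefSeq gene identifier and 0 symbols changed. Diets were compared with limma 3.58.1 in R 4.3.3 (lmFit and eBayes, all 18 arrays, no covariates, Benjamini-Hochberg over all tested probe sets, threshold 0.05). On simulated data for this comparison, with 200 of 16799 probe sets changed, limma recovered 29.9% at 1.19-fold, 94.0% at 1.41-fold and 98.5% at 2-fold. The changed probe sets were drawn at random with their own SDs and independent noise. These rates therefore do not hold for TTR and SERPINF1, whose SDs within diets (1.05 and 0.630) ranked 17 and 82 from the largest. Correlations were tested two-sided with 100000 permutations, or exactly within diets, adjusted over the pairs or relations of a family.

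Named genes were the members, the 5 genes with the highest r with each member, and up to 4 genes per list with the highest mean level; others were named after their values were seen. Alternatives were other filters, normalizations, priors and weights, the replicate block, probe set means, RNA quality, ranks, diets apart and leaving out arrays.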

Additional observations from a re-analysis of the deposited data

Results flagged for a closer look

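Among 10 groups of 9 retinas (5 probe sets in 2 diets), 2 held a retina far from the others, a gap that chance gives in about 1 of 20 groups. In sialyllactose replicate 1 TTR was 8.09, and the next highest sialyllactose retina was at 6.82. In sialyllactose replicate 2 OCA2 was 1.30, and the next lowest was at 1.65.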

How the results depend on the processing

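No diet difference of the 4 genes passed at an adjusted p under 0.05 in any limma fit, and the count of probe sets that differed between diets stayed at 0 with every alternative run. With the replicate block BEST1 differed by -0.271 (limma adjusted p = 0.725) and no call changed. Over the 9 same-numbered pairs the correlation of deviations ran from -0.113 to 0.164, and 3 were over 0.1. Of the 9 control arrays 3, and of the 9 sialyllactose arrays 3, correlated best with the array of their own number in the other diet. The labels give no litter and no array batch, so the numbers were not taken to pair piglets. Whether they mark a pairing was not settled. The unadjusted exact permutation test of BEST1 alone (-0.271) passed at 0.0286. Without single arrays the TTR difference ran from -0.403 to 0.07, that of SERPINF1 from -0.253 to -0.0115, that of BEST1 from -0.308 to -0.218 and that of OCA2 from -0.189 to -0.0906. TTR with SERPINF1 lost its call with diet means removed (0.621), within sialyllactose (0.159), as Spearman's rho (0.562) and without the 2 farthest retinas (0.340), and ran from 0.522 to 0.731 without single arrays. TTR with BEST1 passed within control (-0.779) and turned without the 2 farthest retinas (0.0130). SERPINF1 with BEST1 did not pass within control (-0.524, exact permutation adjusted p = 0.179) and also turned without the 2 farthest retinas (0.159). TTR with OCA2 passed as Spearman's rho (0.690). SERPINF1 with OCA2 turned within sialyllactose (-0.337) and ran from 0.173 to 0.590 without single arrays. BEST1 with OCA2 turned with diet means removed (-0.158), within control (-0.306), as rho (-0.00310), without the 2 farthest retinas (-0.0132) and with RNA quality regressed out (-0.0406), and ran from -0.0567 to 0.159 without single arrays. The cause of these changes was not tested. OCA2 was too dim for the 50% filter, and no value was obtained there.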
